A study of Mus musculus with 2 samples.

Results

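Sites of A-to-I RNA editing that the authors annotated to a 3′ untranslated region (3′ UTR) were examined in cultured mouse embryonic fibroblasts, connective tissue cells grown out of embryos. Members were all sites with that annotation in either of the 2 deposited site lists, joined by position. This gave 422 sites in 142 genes out of 689 listed sites of any region. Poly(A)+ RNA was sequenced as single-end reads from 1 library of genotype Adar2+/+ (WT-labelled) and 1 library of genotype Adar2-/- (KO-labelled). Both cultures were grown in DMEM with fetal bovine serum and antibiotics, and the labels name no treatment, passage or number of embryos. With 1 library per genotype no difference has a replicate check: a test on reads compares these 2 libraries and not the genotypes. Reads carry no molecular identifiers, so every interval covers counting error only.

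ADAR enzymes turn adenosines of paired RNA into inosines, which the sequencer reads as G. In mammals the active enzymes are ADAR1, encoded by Adar, and ADAR2, encoded by Adarb1. Much of this editing falls in 3′ UTRs and introns, where repeat elements of the SINE class lie near an inverted copy and pair with it into long hairpins, and where many adenosines of a hairpin are edited close together. In such regions editing leaves the protein sequence as it is. Inosine in a 3′ UTR is known to be bound by nuclear proteins and can alter the pairing of microRNAs.

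For each site the lists give the reads over it and the reads with the mismatch. The editing level is the second number as a percentage of the first. Every listed site has at least 2 edited reads, so a site at low depth could enter a list only at a high level. Absence from a list does not show that a site is unedited, since the lists give no depth for absent sites. Adarb1 was at 18.4 RPKM, a read density per length of gene and library size, in the WT-labelled library. It was higher, at 25.8 RPKM, under the KO label, so the whole-gene value does not check that label. Adar was at 28.0 and 18.7 RPKM. The deleted part of Adarb1 is not named in the labels, and all directions below rest on the labels. All 12 fibroblast markers reached at least 10 RPKM in a library, and 11 did so in both, with Thy1 at 9.4 and 72.1 RPKM. Summed over their lists, markers of epithelium were at 2.09 and 1.12 RPKM, endothelium at 4.0 and 0.409, leukocytes at 7.14 and 7.52, muscle at 0.760 and 0.342, and neurons at 20.6 and 16.1, nearly all of the last from Tubb3. The part that these differences play in the editing values was not tested.

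The WT-labelled library listed 415 sites in 139 genes and the KO-labelled library 53 sites in 37 genes. Of these, 46 sites in 32 genes were in both lists, 369 sites in 132 genes were in the WT list alone, and 7 were in the KO list alone. Depth at the listed 3′ UTR sites was similar in the 2 libraries, with WT reads between 3 and 84 (median 20) and KO reads between 2 and 79 (median 23). Because listing needs 2 edited reads, these depths do not compare the depth of the libraries as a whole. Listed sites of other regions were shallower, at medians of 9 and 7 reads. Of the 53 sites of the KO list, 86.8% were also in the WT list (exact 95% interval 74.7 to 94.5). The corresponding share among sites of other regions was 50.9% (29 of 57, interval 37.3 to 64.4). By region it was 12 of 15 intergenic, 8 of 8 noncoding RNA and 6 of 29 intronic sites. A high share was therefore not particular to 3′ UTRs. In the other direction, 11.1% of the WT-listed 3′ UTR sites were in the KO list (interval 8.23 to 14.5), close to the 12.1% of WT-listed sites elsewhere. Many KO-listed sites sat at the edge of listing: 25 of 53 (47.2%) had exactly 2 edited reads, against 78 of 415 (18.8%) in the WT list.

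Levels were lower across the KO list as a whole. Among sites with at least 10 reads, the median level was 31.3% in the WT-labelled library (quartiles 17.8 and 50, n = 329 sites) and 13.3% in the KO-labelled library (quartiles 8.0 and 20, n = 45 sites). Of those 329 WT sites, 34 were below 10%, 63 were from 10% to under 20%, 136 from 20% to under 50%, 79 from 50% to under 80%, and 17 at 80% or above. Of the 45 KO sites, 17 were below 10%, 15 from 10% to under 20% and 13 from 20% to under 50%, and none reached 50%. These are the levels of different sets of sites, each chosen by its own library's edited reads. At any depth, 19 WT sites stood at 95% or above, on 3 to 62 reads, whereas the 4 such KO sites were each 2 of 2 reads. The plot of level against depth shows both sets above the boundary that the 2-read minimum sets.

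**Figure D1:**
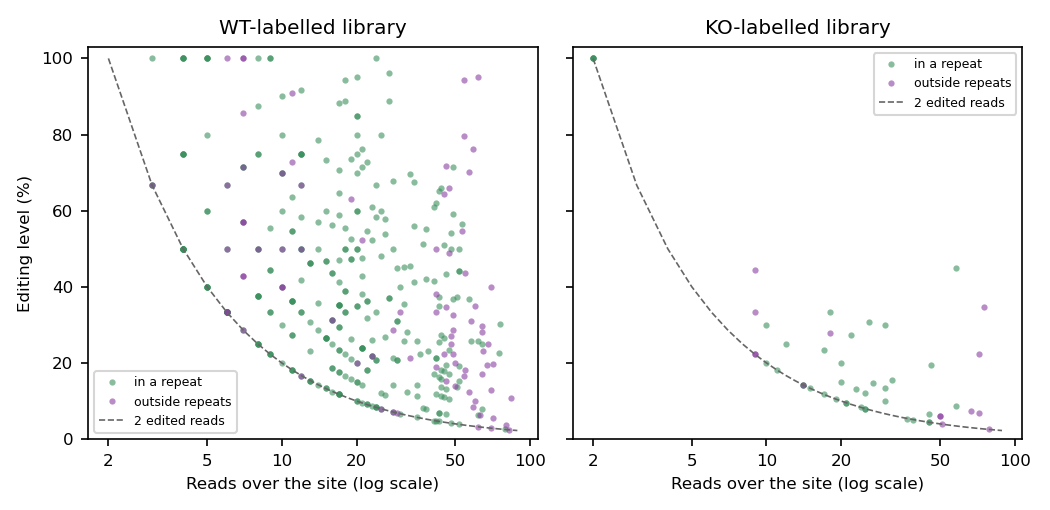
Editing level (percent of reads) of each listed 3′ UTR site against the reads over it on a log axis, in the WT-labelled (left, 415 sites) and KO-labelled (right, 53 sites) library. Each point is 1 site, coloured by the repeat flag, and the dashed curve is the lowest level that 2 edited reads allow. At 10 or more reads, WT sites reach up to 100% while no KO site reaches 50%.

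The 46 sites in both lists are the only ones with a depth in both libraries, and at these the KO-labelled library was lower. Summed over them, the WT-labelled library had 731 edited reads of 1376 (53.1%, Wilson 95% interval 50.5 to 55.7) and 193 of 1433 in the KO-labelled library (13.5%, interval 11.8 to 15.3). A read counts at every listed site it covers, which makes these intervals too narrow. At the 29 shared sites of other regions the pooled levels were 61.4% and 27.3%. The WT level leaned on Rpa1, without which it was 48.3%, and the KO level moved little, to 13.0%.

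Of the shared 3′ UTR sites, 40 in 29 genes had at least 10 reads in each library, and 39 of the 40 had the lower level in the KO-labelled library. Edited against unedited reads were compared by a two-sided Fisher's exact test, and p-values were adjusted (Benjamini-Hochberg) over all 55 such shared sites of any region. On this test 25 of the 40 (62.5%) in 17 genes fell at an adjusted p under 0.05 and 0 rose. Over all 55 sites 60.0% fell, a near share, but 40 of the 55 are these 3′ UTR sites. At the 15 tested sites of other regions 8 fell (53.3%, exact interval 26.6 to 78.7). The share is therefore not read as a feature of 3′ UTR sites. At an unadjusted p under 0.05, 28 fell and 0 rose. The median level over the 40 sites was 55.8% (quartiles 34.9 and 72.1) in the WT-labelled library and 11.9% (quartiles 7.33 and 19.7) in the KO-labelled library. Site by site, the KO level was a median of 25.9% of the WT level, with a range of 7.90% to 181%. Depth at these sites was a median of 28 reads (10 to 65) and 26.5 reads (11 to 79). Of the 23 sites at 50% or more in the WT-labelled library 19 fell, and of the 17 below 50%, 6 did. This split depends on the listing rule: a shared site keeps at least 2 edited KO reads, and 19 of the 46 had exactly 2. A low WT level therefore leaves little room for a fall that can both be listed and pass. Across the 40 sites, WT and KO levels had a Pearson correlation of 0.40 and a Spearman correlation of 0.40, given as a description, since sites of 1 gene share reads and both lists require 2 edited reads. The highest KO level was 34.7%, and 4 of the 40 sites had a KO level of at least 30%.

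**Figure D2:**
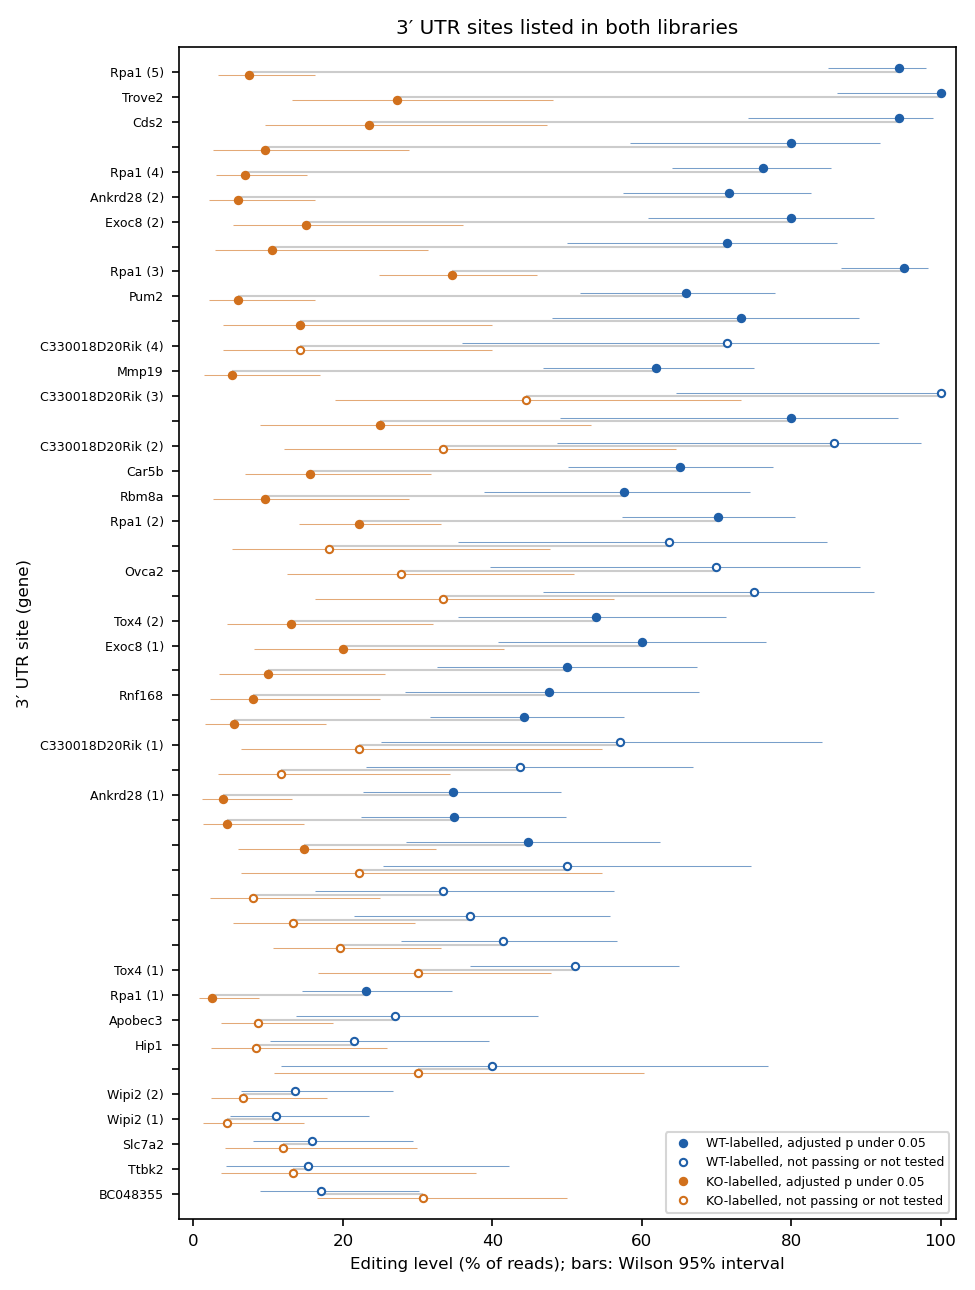
Editing level (percent of reads) at the 46 shared 3′ UTR sites, 1 line per site, ordered by the difference, with the gene given where the text names it and sites numbered within a gene; bars are Wilson 95% intervals, which cover counting error only. Filled points mark the 25 sites that fell, and open points the 15 that did not pass and the 6 with under 10 reads in a library. BC048355, at the bottom, is higher in the KO-labelled library.

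The largest differences at 20 or more reads in both libraries were spread over 8 genes, with 3 of the 10 sites in Rpa1. Rpa1 encodes the largest subunit of replication protein A, which coats single-stranded DNA during replication and repair. Its site at chromosome 11, position 75114080 on the minus strand (build mm9, as the authors give for every position), had 51 of 54 reads edited (94.4%, interval 84.9 to 98.1) in the WT-labelled library. In the KO-labelled library 7.46% of 67 reads were edited there (interval 3.23 to 16.3), and the fall passed at an adjusted p of 9.6e-23 by Fisher's exact test. At position 75114095 the levels were 76.3% of 59 reads and 6.94% of 72 (adjusted p 1.1e-15, same exact test). At position 75114517 they were 95.2% of 62 reads and 34.7% of 75 (adjusted p 4.5e-13, same exact test). These 3 sites start in the same range of WT levels, from 76.3% to 95.2%, and the last kept the highest KO level of all 40 tested sites.

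Trove2, listed in RefSeq as Ro60, encodes the Ro autoantigen that binds misfolded small RNAs. Its site at chromosome 1, 145602508, was edited in 24 of 24 WT reads and in 27.3% of 22 KO reads (adjusted p 4.6e-07, exact test). Ankrd28, a regulatory subunit of protein phosphatase 6, had 71.7% of 46 reads and 6.0% of 50 at chromosome 14, 32513849 (adjusted p 9.2e-11, exact test). In both genes, as in Rpa1, the WT and KO intervals did not overlap at the named site.

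Exoc8, a subunit of the exocyst complex that tethers secretory vesicles, had 80% of 25 reads and 15% of 20 at chromosome 8, 127418084 (adjusted p 6.9e-05, exact test). Pum2 encodes an RNA-binding repressor that itself acts on 3′ UTRs, and its only listed site, at chromosome 12, 8757075, had 66.0% of 47 reads and 6.0% of 50 (adjusted p 3.4e-09, exact test). Mmp19, a matrix metalloproteinase, had 61.9% of 42 reads and 5.13% of 39 at chromosome 10, 128237628 (adjusted p 2.4e-07, exact test). Car5b, a mitochondrial carbonic anhydrase, had 65.1% of 43 reads and 15.6% of 32 at chromosome X, 160415964 (adjusted p 6.9e-05, exact test). Each of these 4 sites therefore fell with at least 20 reads behind each level.

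At the other end, 1 tested site was higher in value under the KO label. BC048355, at chromosome 17, 46636327, had 17.0% of 47 reads in the WT-labelled and 30.8% of 26 in the KO-labelled library, and the difference did not pass (adjusted p 0.291, exact test). Among the smallest decreases in value, Ttbk2, a kinase of tau and tubulin, had 15.4% of 13 reads and 13.3% of 15. Both levels are 2 edited reads, the fewest a listed site can have, so no lower level could be listed at these depths. Slc7a2, a transporter of cationic amino acids, had 15.9% of 44 reads and 12% of 25. Neither passed, and at these depths their intervals overlapped widely. Wipi2, an autophagy factor, had 2 adjacent sites at 13.6% and 11.1% in the WT-labelled and 6.67% and 4.44% in the KO-labelled library, on 44 or 45 reads. Hip1, a clathrin adaptor, had 21.4% of 28 reads and 8.33% of 24. The KO levels of Hip1 and of the Wipi2 site at 4.44% are also 2 edited reads, so a larger fall there could not have been listed. Apobec3, a cytidine deaminase that restricts retroviruses, had 26.9% of 26 reads and 8.62% of 58 (adjusted p 0.0650, exact test). Tox4, an HMG-box protein, had 51.1% of 45 reads and 30% of 30 at chromosome 14, 52913904 (adjusted p 0.120, exact test). Of the 8 smallest decreases, the site that passed was the Rpa1 site at 75114534, at 23.1% of 65 reads and 2.53% of 79 (adjusted p 0.00039, exact test). The 15 tested sites that did not pass had a median WT level of 33.3% and KO level of 13.3%, where the 25 that passed had 66.0% and 10.0%, at much the same read depth (WT medians 27 and 29 reads). As given above, a low WT level leaves less room for a fall that can be listed.

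The 7 sites of the KO list alone were mostly thin. The deep one was in Pkd2, which encodes the cation channel polycystin-2: at chromosome 5, 104933377, 26 of 58 reads were edited in the KO-labelled library (44.8%, Wilson interval 32.7 to 57.5). Pkd2 was at 42.3 and 43.2 RPKM. The site is not in the WT list, so its WT level is not known. Eri1, a 3′-to-5′ exoribonuclease, had 3 sites of 2 edited reads out of 2 within 72 bases, at chromosome 8, 36529158, 36529207 and 36529229. Chrdl1, an antagonist of bone morphogenetic proteins, also had 2 of 2 reads. Sco1, a copper chaperone of cytochrome c oxidase, had 2 edited reads of 10, and the gene model uc008pus.1 had 2 of 14. For 2 of 2 reads the interval runs from 34.2% to 100%, so these levels are hardly bounded.

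The 369 sites of the WT list alone had a median level of 28.6% at 10 or more reads (n = 288), where the WT sites that were also in the KO list had 53.8% (n = 41), and their depth was a median of 19 against 26 reads. The shared sites were thus the higher and deeper ones in the WT-labelled library, but a high level alone did not place a site in the KO list. Of 54 WT sites with at least 20 reads and a level of 50% or more, 17 were shared and 37 were not; at 40 or more reads the numbers were 9 and 12. Sites of the WT list alone with at least 20 reads and a level of at least 80% lay in Rbm8a (96.3% of 27 reads), a core protein of the exon junction complex, Mmgt1 (95% of 20), Exoc8 (88.9% of 27), Rnf168 (85% of 20) and 2010106G01Rik, listed in RefSeq as Sppl2a (85% of 20), a set chosen after the values were seen.

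The lists give no KO depth at a WT-only site. Of the 369 such sites, 46 in 21 genes lay within 30 bases of a KO-listed site, which had a median of 26 KO reads (9 to 79). A neighbour can be in the KO list only where that library has reads, so these depths describe those neighbours and do not give the KO depth at the WT-only sites. The WT-only sites themselves had a median of 34.5 reads and a level of 29.8% in the WT-labelled library. The 10 deepest within 100 bases of a KO-listed site were all in Rpa1. Its site 75114120 had 40% of 70 WT reads, and the KO-listed site 25 bases away had 72 KO reads. Its site 75114079, at 79.6% of 54 WT reads, is 1 base from 75114080, where 67 KO reads were counted. Of 26 genes with at least 2 WT sites and a shared one, the shared sites included the gene's highest WT site in 16.

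Most listed 3′ UTR sites were in repeats by the authors' flag: 331 of 415 in the WT list (79.8%, exact interval 75.6 to 83.5) and 39 of 53 in the KO list (73.6%, interval 59.7 to 84.7). Listed sites of other regions were flagged at 82.0% and 77.2%, so the shares overlap. The repeat class is not given. WT sites in repeats lay in 112 genes and the 84 sites outside in 30, and 3 genes had both kinds. Sites outside repeats were deeper, at a median of 45.5 reads against 18 in repeats. Their median WT level at 10 or more reads was 28.3% (n = 68), against 33.3% in repeats (n = 261), and the KO medians were 7.20% (n = 10) and 13.3% (n = 35). With no minimum of reads the KO medians were 18.3% outside and 14.3% in repeats, so the order of the KO medians turns with the read minimum. Of the WT sites, 14 of 84 outside repeats (16.7%) and 32 of 331 in repeats (9.67%) were also in the KO list. All 14 KO-listed sites outside repeats were also in the WT list.

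Shared sites outside repeats had the larger drop in pooled level, from 66.9% to 13.7% at 14 sites, where the 32 in repeats went from 45.6% to 13.3%. The KO level was a median of 11% of the WT level at the 9 tested sites outside repeats and 27.3% at the 31 in repeats, and 8 of the 9 and 17 of the 31 fell. Of those 9 sites 5 are in Rpa1 and 2 in Ankrd28, and their median depth was 54 WT and 67 KO reads against 26 and 25 in repeats. The pooled KO levels of the 2 classes were close, at 13.7% and 13.3%, and the pooled WT levels were the ones apart. For single sites, the 2-read minimum lets lower KO levels be listed at the greater depth outside repeats. The difference between the classes was not tested.

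The sites outside repeats were of distinct kinds. Rpa1 (17 sites), C330018D20Rik (19 sites, at 3 to 11 WT reads), Ankrd28 (7), Ovca2 (5), Rbbp4 (5), Mad2l1 (4) and Mapk1ip1l (4) carried runs of sites, and the other genes had 1 each. Mad2l1, a spindle checkpoint protein, had 4 edited bases in a row at chromosome 6, 66490206 to 66490209, on 42 reads each. Their levels were 50%, 19%, 38.1% and 33.3%, so the level moved up and down from base to base. Other genes with a single site outside repeats ranged widely in level. The Pum2 site had 66.0% of 47 reads, as given above. Among the deepest such sites, where the 2-read minimum lets the lowest levels be listed, Arhgdia had 10.7% of 84 reads and Ywhag, a 14-3-3 protein, 3.75% of 80. Usp5, a deubiquitinase, had 5.63% of 71 reads, Rnf11, a RING-finger protein, 2.86% of 70, and 2810417H13Rik, listed in RefSeq as Pclaf, a PCNA-binding factor, 19.7% of 71. Of these, Rnf11 rests on 2 edited reads, the fewest that any listed site has.

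The sites were concentrated in few genes. Of 139 genes of the WT list, 71 (51.1%) had 1 site, while 24 genes with 5 or more held 222 sites (53.5%). In the KO list 29 of 37 genes (78.4%) had 1 site. The WT sites lay on 20 chromosomes, the most on X (58 sites), 11 (46) and 2 (43), and 56.1% were on the minus strand. Car5b had the most, 31 sites over 1935 bases with 1 of them in the KO list. Rpa1 had 17 and 5, and Dnajc1, a J-domain protein of the endoplasmic reticulum, 12 and 0. Gla, the lysosomal alpha-galactosidase, Gnl3l, a nucleolar GTPase, and Jmjd4, a JmjC-domain hydroxylase, each had 10 WT sites and 0 KO sites. Slc7a2 had 10 and 1, Fbxl17, an F-box protein, 9 and 0, and Rnf168, a ubiquitin ligase of DNA damage signalling, 9 and 1.

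Listed sites lay close together. In the WT list 305 of 415 sites (73.5%, exact interval 69.0 to 77.7) had another site of the same gene within 100 bases, and 224 (54%) had one within 10 bases. For sites of other regions in named genes the share within 100 bases was 53.4% (62 of 116), and for 3′ UTR sites of the KO list it was 41.5% (22 of 53). The share depends on how many sites are listed, so the WT and KO values are not on 1 footing. Neither are the 3′ UTRs and the other regions, whose listed sites are fewer and, as given above, shallower. Intergenic sites are also left out of the share for other regions. The median gap between neighbours was 11 bases in the WT list (276 gaps, range 1 to 3575). Of these gaps 41 were of 1 base, 96 of 2 to 10, 87 of 11 to 100 and 52 of more than 100 bases. Sites joined at gaps of up to 100 bases formed 81 clusters of 2 or more in the WT list, with a median span of 33 bases (2 to 132), and 23 of them held 5 or more sites. In the KO list there were 9 clusters with 22 sites and 0 of 5 or more. In 41 of 139 genes the WT sites fell into more than 1 cluster or lone site.

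**Figure D3:**
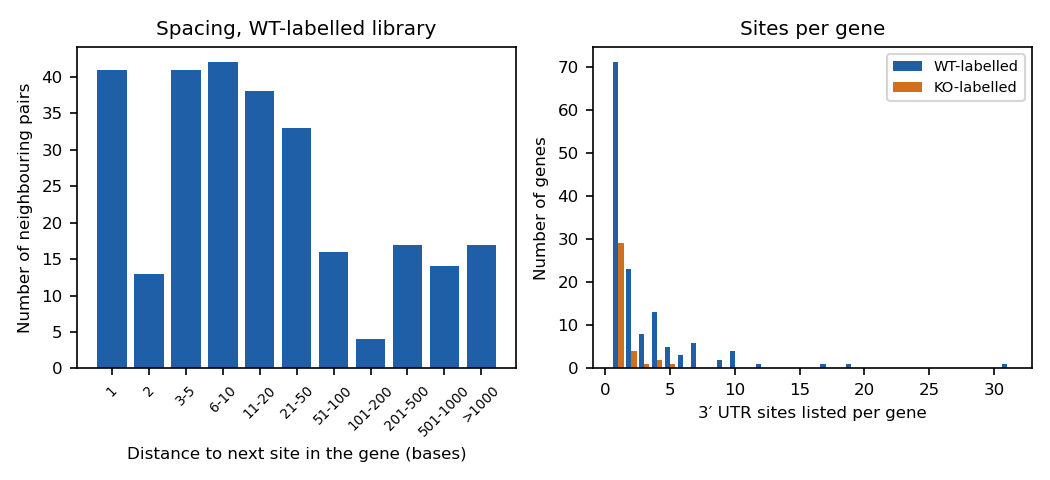
Left, number of pairs of neighbouring 3′ UTR sites of 1 gene by the distance between them in bases (276 pairs of the WT list, bins of unequal width). Right, number of genes by their number of listed sites in each library. Adjacent bases make up 41 pairs and 52 pairs are more than 100 bases apart, and 71 WT and 29 KO genes have 1 site.

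Within a cluster the level varied widely. In the 23 WT clusters of 5 or more sites, the highest and lowest level were a median of 54 percentage points apart (19.2 to 91.9). No minimum of reads was set for this, so counting error adds to it in thin clusters. Examples are 1 cluster of C330018D20Rik at 3 to 11 reads and 1 of Car5b at 3 to 13. In Rpa1, 11 sites within 72 bases ran from 12.9% to 94.4% at 54 to 70 reads, and a second cluster of 6 sites within 42 bases ran from 3.23% to 95.2% at 60 to 65 reads. The depth was nearly the same at all 17 sites, so the levels differ more than counting error: the intervals of the 94.4% and 12.9% sites do not overlap. Slc7a2 was of another kind, with all 10 sites of the gene between 4.17% and 23.4% at 41 to 52 reads and no site that stood out. Rnf168 ran from 17.1% to 88.9% at 18 to 41 reads, and a Dnajc1 cluster of 6 sites from 8.70% to 72.7% at 17 to 23 reads. In Car5b, 8 sites within 106 bases ran from 11.9% to 65.9% at 42 to 44 reads, whereas its sites at 100% had 3 to 9 reads. Fbxl17 (4 or 5 reads a site) and Jmjd4 (4 to 9 reads) reach 100% only at such depth.

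**Figure D4:**
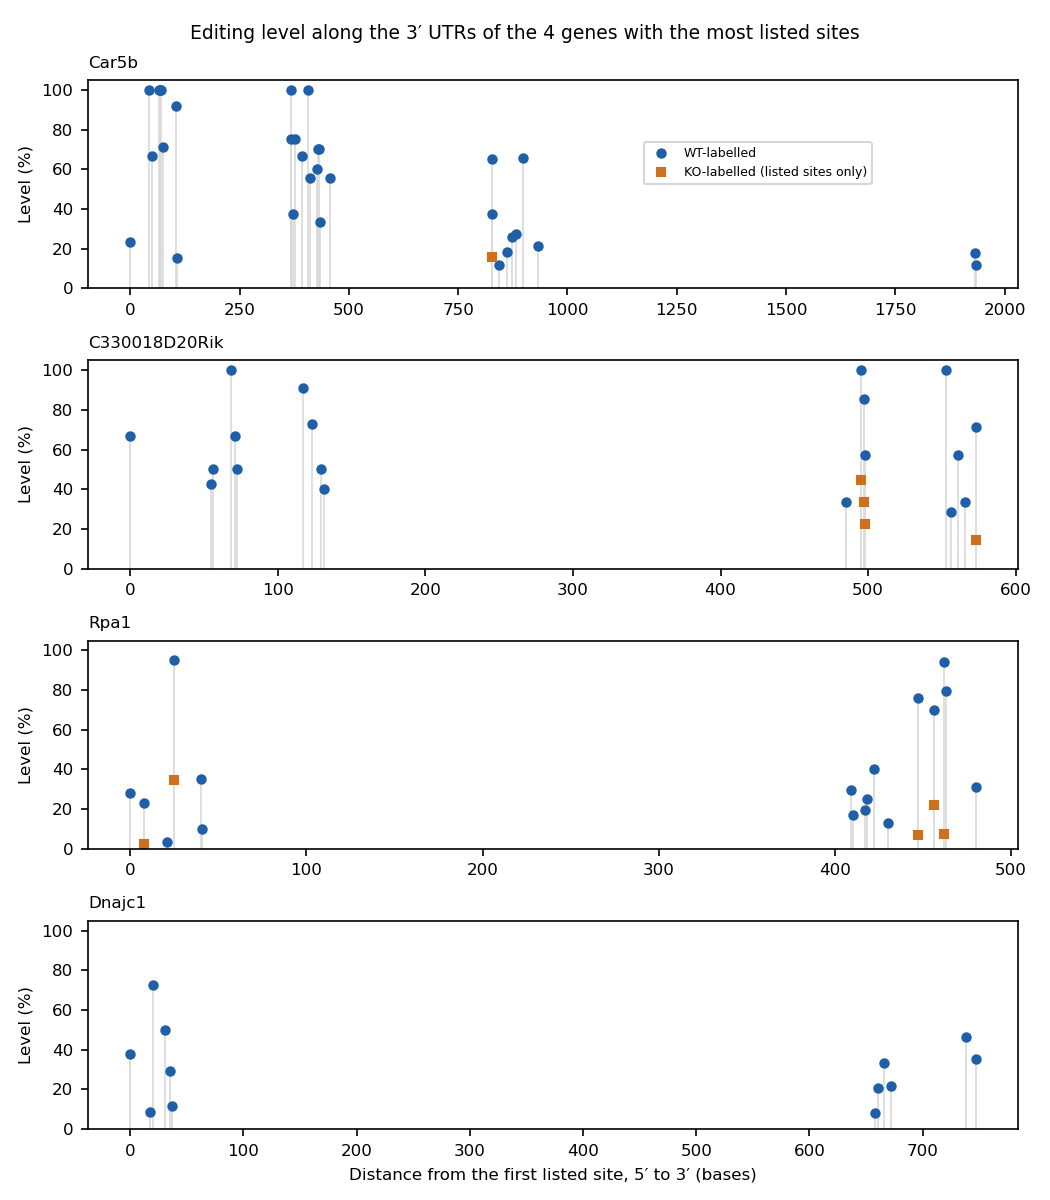
Editing level (percent of reads) against distance from the gene's first listed site, 5′ to 3′ in bases, in the 4 genes with the most listed sites. Circles are WT-labelled and squares KO-labelled sites, and a site without a square is missing from the KO list. Rpa1 shows 2 groups of sites with high and low levels side by side, and each KO value lies below the WT value at the same position.

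Directly adjacent edited bases allow levels to be compared at almost equal depth. At 10 or more reads there were 32 such pairs in 21 genes of the WT list. The base on the 3′ side had the lower level in 18 pairs, the higher in 9 and the same in 5, with a median difference of -4.88 points. Usp45 had the largest drop, from 88.2% to 35.3% on 17 reads, and Ankrd28 had 71.7% and 34.8% on 46 reads. Mapk1ip1l went the other way, from 22.2% to 64.4% on 45 reads, as did Car5b, from 37.2% to 65.1% on 43 reads. Pairs share genes and reads, and no test was made of the order; Usp45 and Mapk1ip1l were chosen after the values were seen. The size of the difference was of the same order in every distance class: its median was 14.1 points at 1 base, 13.6 at 2 to 10 bases (71 pairs), 18.2 at 11 to 50 (56 pairs) and 16.1 at 51 to 100 (11 pairs). At 2 to 10 bases the base on the 3′ side was higher in 36 pairs and lower in 32.

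The authors noted a human counterpart for 6 WT-listed 3′ UTR sites, 5 in Cds2, which makes CDP-diacylglycerol for phospholipid synthesis, and the Pum2 site. The Pum2 site and 1 of Cds2 were shared. At the shared Cds2 site, chromosome 2, 132135616, the level was 94.4% of 18 WT reads and 23.5% of 17 KO reads, a fall by the exact test (adjusted p 6.9e-05). The other 4 Cds2 sites with a counterpart had WT levels of 21.1% to 52.6% on 17 to 19 reads. Cds2 was at 22.1 and 20.6 RPKM.

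The median expression ratio between the libraries was near that of all genes for the genes that carry the sites. Of the 142 genes, 129 were in the expression table by symbol, and all 129 had at least 1 RPKM in a library. In bulk RNA fewer cells of a type and less RNA per cell cannot be told apart. On the scale log2((KO + 1)/(WT + 1)) of RPKM, which understates the change of low genes, their median was 0.00 (quartiles -0.18 and 0.17), as over all 13867 genes compared (0.01, quartiles -0.21 and 0.22). At least 2-fold higher were 2 of 129, against 4.42% of all genes, and at least 2-fold lower were 4, against 7.46%. A gene can carry a listed site only where reads cover it, so the 129 are not a like sample of all genes, and the lower counts are not read as a trait of them. Htra1, a secreted serine protease, was at 19.7 RPKM (WT) and 44.7 RPKM (KO), and Apobec3 at 11.5 and 25.8 RPKM. Lower were Ecm2, an extracellular matrix protein (6.74 and 0.728 RPKM), Kcnk6, a potassium channel (4.06 and 0.359), Dtx3l, a ubiquitin ligase (32.9 and 12.4), and Trim12c, a TRIM family gene (17.3 and 6.67). None of the 45 genes with 3 or more listed sites was past 2-fold in either direction.

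Of the 369 sites of the WT list alone, 349 were in genes with an expression value. At 342 of them the gene's KO RPKM was at least 50% of its WT RPKM, at 7 it was less, and the median KO-to-WT ratio was 1.01. Sites of 1 gene share its value, so these count sites and not independent genes. Over all genes compared, 7.46% were at least 2-fold lower on RPKM + 1. That share is on a different scale and counts genes, so it is not a like background for these counts of sites. Rpa1 was at 50.3 and 59.6 RPKM, Dnajc1 at 21.5 and 24.4 and Gnl3l at 36.9 and 41.0, all higher in value under the KO label, where Dnajc1 and Gnl3l had 0 listed sites. Car5b was at 29.2 and 20.3 RPKM and Slc7a2 at 41.0 and 28.2. The RPKM value is for the whole gene and does not give the reads over its 3′ UTR. The part of expression in which sites are listed was not tested. Over the 129 genes, the number of listed sites and the mean RPKM had a Spearman correlation of 0.054, given as a description.

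**Figure D5:**
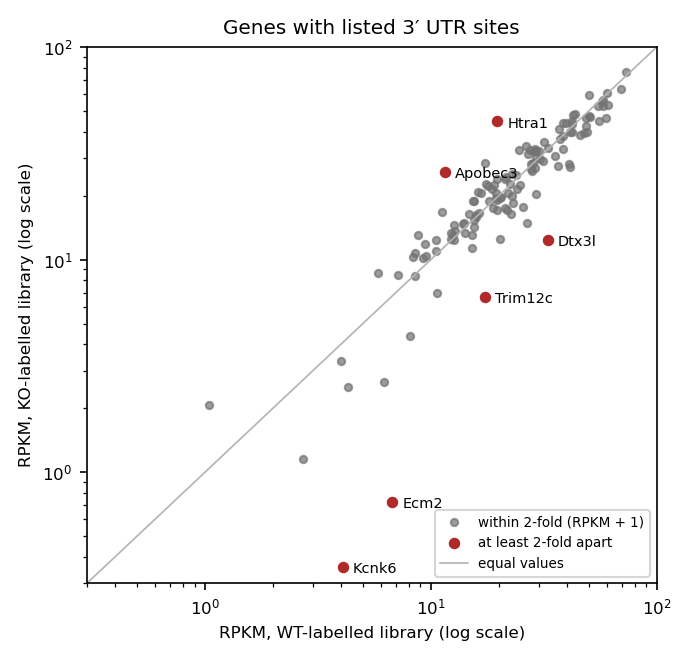
RPKM in the KO-labelled against the WT-labelled library for the 129 genes with 3′ UTR sites, 1 point per gene, on log axes with a line of equal values. The 6 genes at least 2-fold apart on RPKM + 1 are named, and the other 123 lie nearer to the line.

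A list of 22 genes for proteins that bind double-stranded or inosine-containing RNA was read beside the editing enzymes. Of its 20 compared members 0 were past 2-fold, where 4.42% of all genes were higher and 7.46% lower by that much, so a count of 0 in so short a list is near the background. Their median log2 ratio was 0.06. Eif2ak2, the kinase PKR that double-stranded RNA activates, had the lowest ratio (-0.63, 53.1 and 33.8 RPKM). Stau2, a Staufen protein that binds double-stranded 3′ UTRs, had the highest (0.58, 8.24 and 12.8 RPKM). Matr3 (37.9 and 38.8), Nono (49.9 and 52.4) and Sfpq (44.3 and 51.3 RPKM), nuclear proteins that associate with inosine-containing RNA, lay between. The lower RPKM of Adar in the KO-labelled library moves together with the lower editing levels, and its part in them was not tested.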

How the data were processed

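STAR 2.4.0d, SAMtools and the build mm9 are named in the submitters' processing notes, without a step for each. For the editing caller, its filters and the repeat annotation, the sources used here give nothing. Per the file headers, the deposited editing lists give counts of mapped and mismatched reads and the level as a fraction; levels printed here were computed from the counts. The authors' deposited expression table gives RPKM for 24015 genes and a log2 fold change, per the file headers. Sites were joined by position with pandas 2.3.3, and Fisher's exact tests used scipy 1.17.1 (threshold 0.05, at least 10 reads in both libraries), checked on simulated counts. The simulated counts were drawn independently at each site and without the 2-read minimum, so the check does not cover shared reads or the listing rule. The expression ratio used a pseudocount of 1 RPKM and a filter of 1 RPKM. Of the 142 gene names, 126 are current RefSeq symbols, 7 are older symbols of 1 gene, and 9 are named only.

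Members, gene lists and tests were chosen with earlier results of these data known. Named sites are the 10 largest differences at 20 or more reads, the 8 smallest decreases and any increase, all KO-only sites, the 10 deepest WT-only sites within 100 bases of a KO-listed one and the 10 deepest outside repeats. Some sites that this rule picks are not reported here. Named genes are the 10 with the most sites, those at least 2-fold apart in expression, Adar and Adarb1. Adjacent-base pairs and human counterparts were named after their values were seen. A site on 20 reads has a wide interval, and duplicates and mapping in repeats could shift levels in ways these files do not show. Sequences around the sites are not used here.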

Additional observations from a re-analysis of the deposited data

How the results depend on the processing

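Of 62 alternative values, 49 kept near the main value and 13 moved. Near meant within a set fold of the main value for counts, and within its 95% interval for shares, levels and medians. By this rule, 6 genes at least 2-fold lower (pseudocount of 0.1) in place of 4 did not count as moved. Requiring 3 edited reads left 28 KO-listed sites and 26 shared ones. The pooled WT level at shared sites was 49.96% without sites at 95% or above, 44.9% with 1 site per gene, 48.3% without Rpa1 (chosen after seeing the data) and 55.9% as a mean of site levels; the KO mean of site levels was 15.9%. With 1 site per gene, 15 tested sites fell in place of 25. The median WT level in repeats was 26.4% at 20 or more reads, and 68.9% of WT sites had a neighbour within 50 bases. Genes with 3 or more sites (chosen after seeing the data) gave 0 genes 2-fold higher and 0 lower, and the deposited fold change gave a median log2 ratio of 0.0557. No paired analysis was possible because each genotype has 1 library, and for the same reason no library could be left out. Depth limits low levels: at 20 reads the lists cannot hold a level under 2 edited reads of 20.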
